A study of Oryza sativa with 6 samples.

Results

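Momilactones are labdane-related diterpenoids that rice makes as phytoalexins, antimicrobial compounds formed after infection or elicitor treatment, and releases from its roots as growth inhibitors of other plants. Most genes of their synthesis lie side by side on chromosome 4. Within that cluster CPS4 makes syn-copalyl diphosphate from geranylgeranyl diphosphate, KSL4 turns it into a pimaradiene, the cytochrome P450 enzymes CYP99A2 and CYP99A3 oxidise the hydrocarbon, and OsMAS, a short-chain dehydrogenase, makes momilactone A. The genes described here are CPS4 (LOC4335090), CYP99A2 (LOC4335096), CYP99A3 (LOC4335091) and OsMAS (LOC4335093). They were taken by name, and every array probe set annotated to them was used. Each has 1 probe set, so 4 of the 57194 non-control probe sets and 4 of the 17905 genes on the array are described.

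The arrays measured RNA of untreated 4-leaf rice seedlings raised at 28 °C, and the 6 arrays form 3 groups of 2 biological replicates. The groups are seedlings overexpressing OsUBA, seedlings carrying RNA interference (RNAi) against OsUBA, and wild type of cultivar Nipponbare. The labels state neither the promoters of the constructs nor the number of transformed lines, and they name no transformed control without an OsUBA construct, so differences from wild type cannot be told apart from effects of transformation. No gene called OsUBA is in the gene tables used, and its level is not analysed here. Values are the authors' log2 array values. The array medians lay between 5.67 and 5.92, and replicate arrays correlated at r = 0.913 to 0.916 across kept probe sets. A probe set was tested if at least 2 arrays reached a log2 value of 5, called the filter level below. All 4 genes met this, CPS4 and OsMAS on just 2 arrays, CYP99A2 on 5 and CYP99A3 on 6. Every test is a limma fit of the 3 group means over all 6 arrays with a prior spread that follows brightness, and adjusted p is Benjamini-Hochberg over 40466 probe sets.

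None of the 4 genes passed an adjusted p of 0.05 in any comparison. CYP99A3 came closest, lower in overexpression than in RNAi with an adjusted p of 0.0517. CPS4, CYP99A2 and OsMAS were dim, with replicate arrays of 1 group up to 3.85 log2 units apart. In whole seedlings, fewer cells that express a gene and less of its RNA per cell cannot be told apart.

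CPS4 acts at the first of the synthesis steps described here. Its log2 values were 3.26 and 4.69 in overexpression, 4.26 and 5.48 in RNAi, and 4.77 and 5.86 in wild type. The group means were 3.97 ± 1.01 in overexpression, 4.87 ± 0.86 in RNAi and 5.31 ± 0.77 in wild type (SD, n = 2 each), in that order from low to high. Both overexpression arrays lay under both wild-type arrays, by a narrow gap, and RNAi overlapped with each of the other groups. The log2 change was -1.34 ± 0.97 (SE) between overexpression and wild type (adjusted p = 0.684). Both overexpression arrays lay under the filter level, and the wild-type mean was 1.24-fold above that level. This fold is no minimum difference, since the lower wild-type array (4.77) also lay under the filter level. The limma interval of the log2 change, from -3.60 to 0.92, included no change. The log2 change was -0.44 between RNAi and wild type (adjusted p = 0.92). The overexpression and RNAi means both lay under the filter level, so no fold is given between them (adjusted p = 0.682).

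OsMAS acts at the last step, the oxidation that yields momilactone A. It had log2 values of 2.28 and 2.43 in overexpression, 5.01 and 2.35 in RNAi, and 3.24 and 5.80 in wild type. Only RNAi replicate 1 and wild-type replicate 2 reached the filter level. The means were 2.35 ± 0.11 in overexpression, 3.68 ± 1.88 in RNAi and 4.52 ± 1.81 in wild type (SD, n = 2 each). All 3 means lay under the filter level, so no fold is given, and its log2 differences in the counts, medians and intervals below are differences between dim deposited values. The overexpression and wild-type arrays did not overlap, while RNAi overlapped with both. Adjusted p was 0.707 for overexpression against wild type, 0.911 for RNAi against wild type and 0.737 for overexpression against RNAi.

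CYP99A2 and CYP99A3 belong to the same P450 subfamily, and the group means of their probe sets ran in different orders. That contrast rests on RNAi replicate 1. Without it the log2 changes of CYP99A2 had the signs of CYP99A3 (-0.85 between overexpression and RNAi, 0.69 between RNAi and wild type). The genes were not tested against each other. CYP99A2 had log2 values of 5.62 and 5.66 in overexpression, 2.65 and 6.49 in RNAi, and 5.16 and 6.44 in wild type. From low to high the group means ran RNAi (4.57 ± 2.72), overexpression (5.64 ± 0.03) and wild type (5.80 ± 0.90; SD, n = 2 each), and every pair of groups overlapped. The RNAi mean rests on 2 arrays that hold the lowest and the highest of the 6 values. The log2 change was -0.16 between overexpression and wild type, -1.23 between RNAi and wild type, and 1.08 between overexpression and RNAi (adjusted p = 0.977, 0.782 and 0.692).

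CYP99A3 oxidises, in biochemical assays, the methyl group that becomes part of the momilactone lactone ring. It had log2 values of 5.60 and 6.63 in overexpression, 7.83 and 8.27 in RNAi, and 7.19 and 7.08 in wild type. The means were 6.11 ± 0.73 in overexpression, 8.05 ± 0.31 in RNAi and 7.14 ± 0.08 in wild type (SD, n = 2 each). From low to high the groups ran overexpression, wild type, RNAi, with no overlap between any pair. This order without overlap was found in 4.71% of the 40466 probe sets tested, and the opposite order in 4.42%.

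Overexpression was 3.83-fold below RNAi in CYP99A3, a log2 change of -1.94 ± 0.43 (SE) with a 95% interval from -2.94 to -0.93. The unadjusted p was 0.00226 and the adjusted p 0.0517, and 4.37% of probe sets had a p as small or smaller in this comparison. Of 13 alternative settings, 9 left the adjusted p over 0.05 and 4 brought it under. It was 0.175 when the prior spread did not follow brightness, 0.0684 with no filter, 0.0938 with only the 4 arrays compared and 0.0569 with replicate number as a block. It was 0.261 without overexpression replicate 1 (log2 change -1.42), 0.086 and 0.243 without RNAi replicate 1 and 2, and 0.0968 and 0.0959 without wild-type replicate 1 and 2. It was 0.0474 after quantile normalisation, 0.0405 with each array centred on its median, 0.0475 with the filter at log2 6 and 0.0444 without overexpression replicate 2 (log2 change -2.45). Against wild type the log2 change was -1.02 ± 0.43 in overexpression (unadjusted p = 0.0468, adjusted p = 0.515) and 0.91 ± 0.43 in RNAi (unadjusted p = 0.0688, adjusted p = 0.511). Without overexpression replicate 1 the difference between overexpression and wild type was -0.50.

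**Figure D1:**
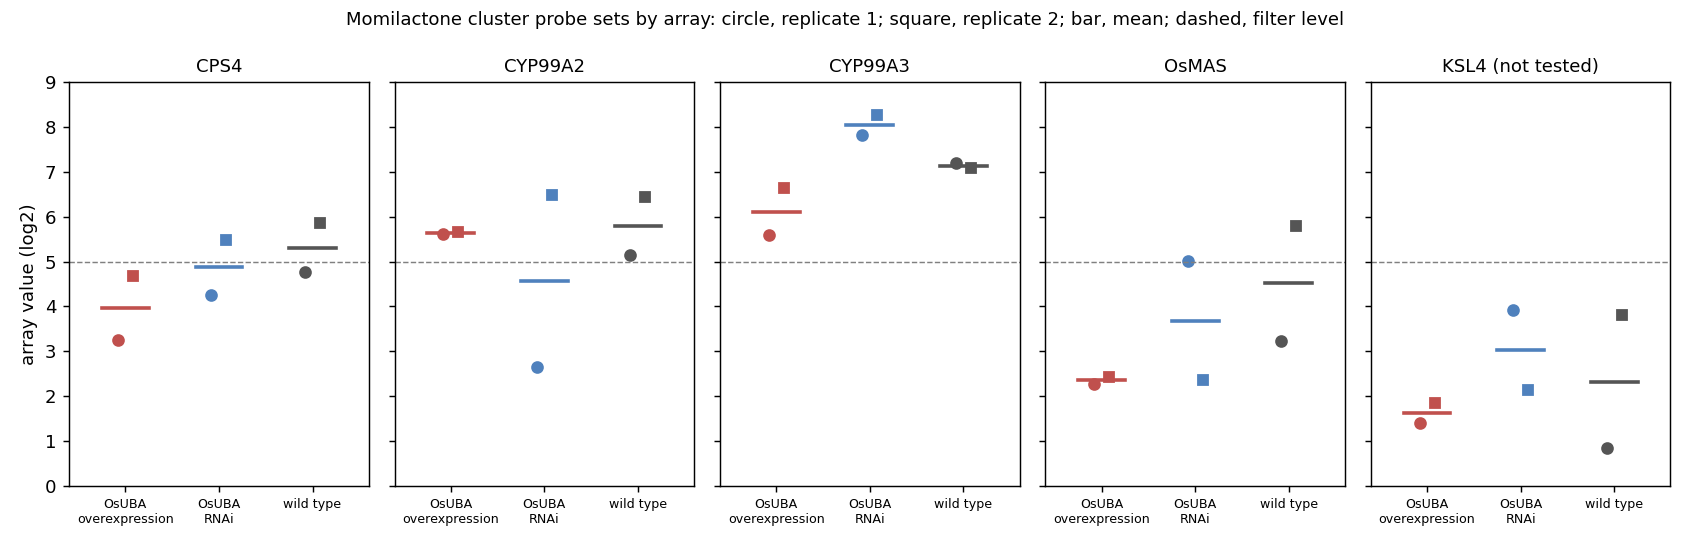
Log2 array values of the 4 genes and of KSL4 in overexpression, RNAi and wild-type seedlings; circles are replicate 1, squares replicate 2, bars group means, and the dashed line the filter level of log2 5. CYP99A3 lies between 5.60 and 8.27 with 3 separate groups, while the RNAi arrays of CYP99A2 lie at 2.65 and 6.49.

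**Figure D2:**
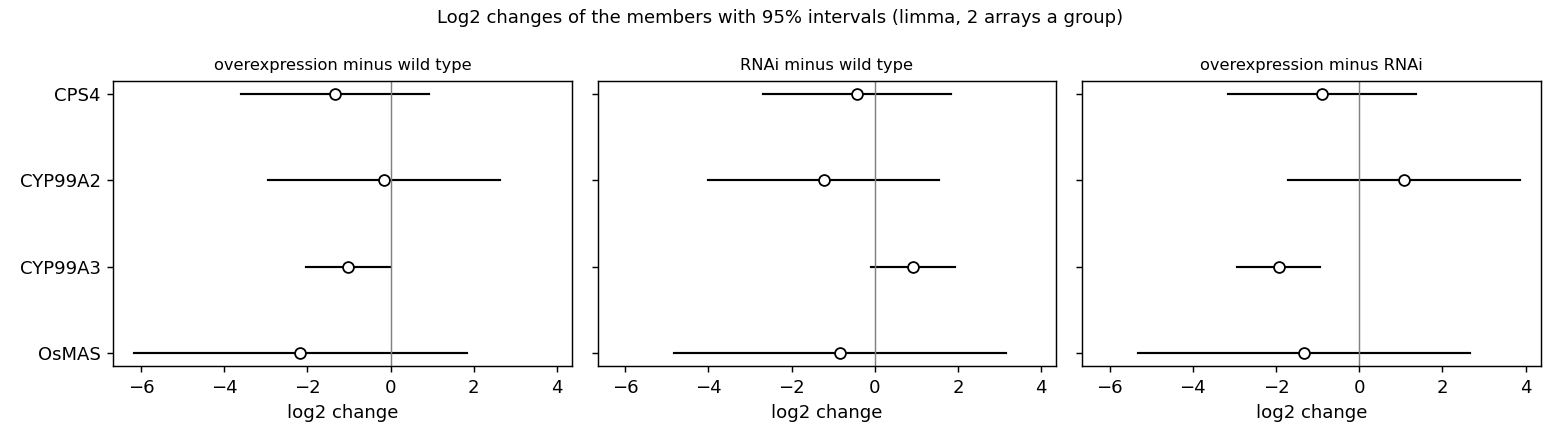
Log2 changes of the 4 genes with 95% intervals from limma for overexpression minus wild type, RNAi minus wild type and overexpression minus RNAi (2 arrays a group). The interval of CYP99A3 between overexpression and RNAi runs from -2.94 to -0.93, and that of OsMAS in the same comparison from -5.32 to 2.67.

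Counted over the 4 genes, 0 passed in overexpression against wild type, where 0.356% of all tested probe sets passed, and 1 (CYP99A3) had an unadjusted p under 0.05, as did 9.54% of all. In RNAi against wild type 0 passed (0.773% of all), and 0 had an unadjusted p under 0.05 (10.9% of all). In overexpression against RNAi 0 passed (4.26% of all), and 1 (CYP99A3) had an unadjusted p under 0.05 (18.5% of all). Without the intensity trend in limma 0 of the 4 genes passed in each comparison, and of all probe sets 0% passed in overexpression against wild type, 0.00247% in RNAi against wild type and 0.0124% in overexpression against RNAi. A count of 0 of 4 lies near these background shares.

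The log2 change between overexpression and wild type was negative in all 4 genes, with a median of -1.18, beside a median of -0.08 over all tested probe sets. Leaving out 1 array gave medians from -1.80 to -0.56 (-0.56 without overexpression replicate 1), the filter at log2 6, which keeps just CYP99A2 and CYP99A3, gave -0.59, and CYP99A2 turned positive (0.48) without wild-type replicate 2. CPS4, CYP99A3 and OsMAS, 3 of the 4, had overexpression arrays wholly below the wild-type arrays, as did 24.4% of all tested probe sets. CPS4 and OsMAS reached the filter level on no overexpression array, so RNAi and wild-type arrays alone brought them into the test. That filter favours lower overexpression values, so the negative signs and gaps of CPS4 and OsMAS are no independent result. Between RNAi and wild type 1 change was positive and 3 were negative (median -0.64, all probe sets 0.0014), and only CYP99A3 did not overlap, as in 19.9% of all probe sets in that direction. Between overexpression and RNAi 3 were negative and 1 positive (median -1.11, all probe sets -0.09), and CYP99A3 alone did not overlap, as in 29.2% of all probe sets in that direction. This median was -0.72 without overexpression replicate 1 and -0.43 with the filter at log2 6, and CYP99A2 turned negative (-0.85) without RNAi replicate 1. The comparisons with wild type share the wild-type arrays, and those with overexpression share the overexpression arrays. Without RNAi replicate 1 the median between RNAi and wild type was 0.43, and without wild-type replicate 2 it was 0.28.

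The intervals leave room for large differences in the 3 dim genes. Between overexpression and wild type the 95% interval ran from -3.60 to 0.92 for CPS4, from -2.94 to 2.63 for CYP99A2 and from -6.16 to 1.83 for OsMAS. For CYP99A3 it ran from -2.03 to -0.02 between overexpression and wild type and from -0.09 to 1.92 between RNAi and wild type.

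Replicate spread was compared with tested probe sets whose mean over the arrays lay within 0.5 log2 units of the gene's own. The within-group SD of CYP99A2, pooled over the groups, was 1.65, larger than in 94.1% of 6737 such probe sets, whose median was 0.76. CPS4 (0.89), CYP99A3 (0.46) and OsMAS (1.51) stood at 36.3%, 61.3% and 38.5% of theirs. The spread of CYP99A2 was thus high for its brightness among tested probe sets. A dim probe set was tested only if 2 arrays reached the filter level, which favours a wide spread. The sets compared with CPS4 and OsMAS had median SDs of 1.09 and 1.70, beside 0.40 for CYP99A3. The shares of CPS4 and OsMAS therefore do not show an ordinary spread.

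CPS4 was higher on replicate 2 than on replicate 1 in every group, by 1.43 in overexpression, 1.22 in RNAi and 1.09 in wild type. Across all tested probe sets the replicate numbers carried no such shared deviation, with correlations of -0.03 to 0.04 between groups. OsMAS differed in the other direction in RNAi (-2.66) from wild type (2.56), and by 0.15 in overexpression. KSL4 (LOC4335094, listed as DTS2 in the gene table), the diterpene synthase between OsMAS and CYP99A2 in the cluster, shared this array pattern, at -1.78 in RNAi, 2.95 in wild type and 0.45 in overexpression.

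KSL4 itself was dim on all 6 arrays and was not tested. Its log2 values were 1.39 and 1.84 in overexpression, 3.91 and 2.13 in RNAi, and 0.85 and 3.80 in wild type. Over the 6 arrays the Pearson r of OsMAS and KSL4 was 0.84, that of CPS4 and CYP99A3 0.64, and that of CYP99A2 with CYP99A3 -0.19 and with OsMAS -0.33. These r values describe 6 shared arrays, and most of the values behind the first lie under the filter level.

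In the gene table the cluster stretch from CPS4 to CYP99A2 holds 9 genes, of which 6 code for proteins and 3 are long non-coding RNAs. Their order is CPS4, CYP99A3, a non-coding RNA, the unnamed LOC4335092, OsMAS, a pair of non-coding RNAs, KSL4 and CYP99A2, and 5 of the 9 have a probe set. Of the 10 genes on either side, 7 have a probe set and 6 were tested. Their log2 changes between overexpression and wild type ran from -0.59 to 0.78, with 3 positive and 3 negative (median -0.09), and 0 passed there or between RNAi and wild type.

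Between overexpression and RNAi 1 of these 6 flanking genes was called higher (3.31% of all tested probe sets), the unnamed LOC4335079, at 10.58 on both overexpression arrays and 9.11 and 9.56 in RNAi (log2 change 1.24 ± 0.23, adjusted p = 0.0259). That call was lost without the intensity trend (0.175), with arrays centred on the median (0.0601), when any one of overexpression replicate 1 (0.189), overexpression replicate 2 (0.113) or RNAi replicate 1 (0.083) was left out. The change of LOC4335079 was opposite in sign to those of CPS4, CYP99A3 and OsMAS, and had the same sign as that of CYP99A2 (1.08). ARP9 (LOC4335089), next to CPS4 and named for an actin-related protein, had 9.30 and 9.66 in overexpression, 9.68 and 9.88 in RNAi, and 10.16 and 9.70 in wild type, and passed no test (adjusted p = 0.565 to 0.879).

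**Figure D3:**
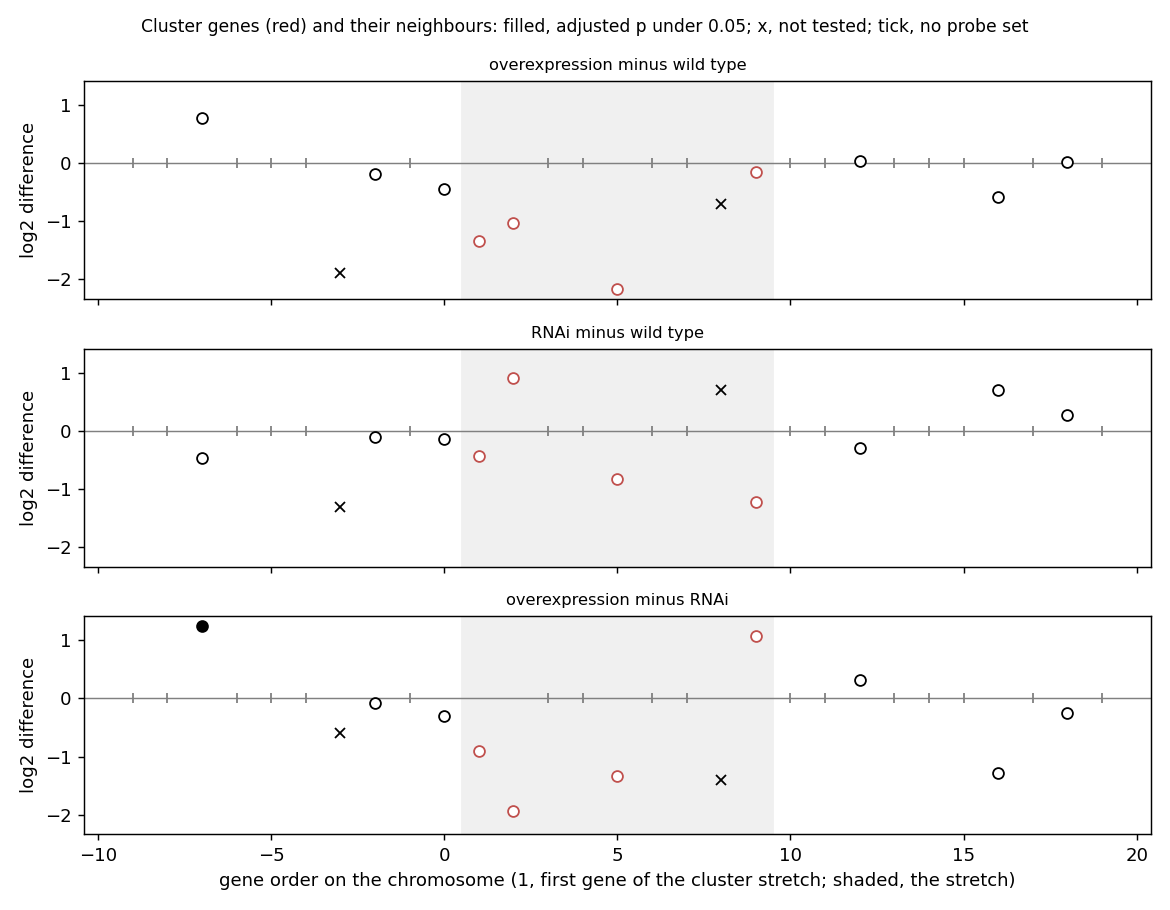
Log2 differences of group means for the 4 genes (red) and the genes around them, in table order along the chromosome; position 1 is CPS4, position 9 CYP99A2, the shading marks the stretch between them, and ticks mark genes without a probe set. The tested flanking genes lie between -1.28 and 1.24 in all 3 comparisons, and the filled point is LOC4335079.

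Momilactone synthesis also uses enzymes encoded outside the cluster. Of the other momilactone genes sought by name, in the cluster or outside it, 3 have a probe set: KSL4, CYP76M8 and CYP701A8. KSL4 lies in the cluster and was not tested. Of the 2 tested, 1 was called lower in overexpression than in RNAi (0.954% of all tested probe sets were). Against wild type 0 passed, and 1 had an unadjusted p under 0.05 in overexpression (9.54% of all) and in RNAi (10.9% of all). CYP701A8 (LOC4341343), a P450 that oxidises diterpenes, was measured at 6.99 and 7.69 in overexpression, 9.56 and 11.00 in RNAi, and 9.17 and 8.20 in wild type. It was lower in overexpression than in RNAi, 7.67-fold (log2 change -2.94 ± 0.52, adjusted p = 0.0232), and the groups lay in the same order without overlap as those of CYP99A3. That call was lost when any one of overexpression replicate 1 (adjusted p = 0.196), overexpression replicate 2 (0.0625) or RNAi replicate 2 (0.0827) was left out, and without the intensity trend (0.179). CYP76M8 (LOC4329722), a P450 of the chromosome 2 cluster that also acts in momilactone synthesis, had 6.12 and 8.38 in overexpression, 8.51 and 8.24 in RNAi, and 8.05 and 8.33 in wild type, with overlap between overexpression and both other groups (adjusted p = 0.399 to 0.95).

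The chromosome 2 cluster makes the phytocassanes and other diterpenoids from ent-copalyl diphosphate. Of 9 measured and tested genes listed for it (the gene table puts CYP76M7 on chromosome 6), 2 were lower and 0 higher in overexpression than in RNAi (0.954% of all tested probe sets were called lower), with a median log2 change of -1.13. CPS2 (LOC9266189), which makes ent-copalyl diphosphate for this branch as CPS4 makes the syn form, had 6.17 and 6.18 in overexpression, 9.72 and 10.69 in RNAi, and 8.75 and 7.83 in wild type (16.3-fold between overexpression and RNAi, adjusted p = 0.00263; 0.0776 without the intensity trend). The P450 gene CYP71Z6 (LOC4329725) was 9.73-fold lower in overexpression than in RNAi (adjusted p = 0.0355), a call lost without overexpression replicate 1, RNAi replicate 2 or either wild-type replicate (adjusted p = 0.0622 to 0.214), with replicate number as a block (0.0523), with only the 4 arrays compared (0.0593) and without the intensity trend (0.214). Against wild type 0 of the 9 passed in overexpression (4 at an unadjusted p under 0.05, beside 9.54% of all, median -0.94) or in RNAi (2 at an unadjusted p under 0.05, beside 10.9% of all, median 0.10). KSL10 (LOC4352248), a diterpene synthase of the oryzalexin branch, had 5.62 and 5.51 in overexpression, 3.63 and 1.25 in RNAi, and 4.38 and 5.64 in wild type, the opposite sign to CYP99A3 between overexpression and RNAi (adjusted p = 0.21). It and CYP701A8 were the 2 measured genes of a list of other diterpenoid phytoalexin genes.

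Over the 6 arrays the Pearson r of CYP99A3 to the 12 other diterpenoid genes measured ran from -0.82 (KSL10) to 0.97 (CYP71Z6). It was 0.95 to CYP701A8, 0.93 to CPS2, 0.87 to KSL5, 0.78 to CYP76M8 and 0.71 to CYP76M5, but 0.40 to KSL4, 0.29 to KSL7, 0.21 to CYP76M6, 0.14 to CYP71Z7 and -0.50 to CYP76M7. Genes called lower in overexpression than in RNAi share the direction of CYP99A3 between these groups by how they were chosen. To the same 12 genes the r values of CPS4 lay between -0.51 and 0.74, those of CYP99A2 between -0.61 and 0.29, and those of OsMAS between -0.25 and 0.84. Among 1178 named genes that varied by at least 1 log2 unit, the most like CYP99A3 were a gene listed as AtNLP3 (LOC4327787, r = 0.997), named for a NIN-like transcription factor, the beta-glucosidase BGLU19 (LOC4338556, r = 0.994) and the jasmonate repressor JAZ4 (LOC4347000, r = 0.98). BGLU19 had 11.72 and 12.09 in overexpression, 12.75 and 12.87 in RNAi, and 12.43 and 12.37 in wild type. Its change between overexpression and RNAi passed (-0.90, adjusted p = 0.03, but 0.0596 with only the 4 arrays compared, 0.222 without the intensity trend and 0.062 to 0.23 without any one of 5 of the 6 arrays), whereas AtNLP3 and JAZ4 had adjusted p values of 0.0598 and 0.0893.

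The genes most like CPS4 by the same measure were KU70 (LOC4342584, r = 0.968), MGD2 (LOC4345212, r = 0.947) and OsSPX5 (LOC4333078, r = 0.943). For CYP99A2 they were PAL06 (LOC4330040, r = 0.925), OsSWEET5 (LOC4339772, r = 0.914) and GEN1 (LOC4347617, r = 0.895), and for OsMAS the chitinase gene Cht11 (LOC4331519, r = 0.957), OsTPP7 (LOC4346885, r = 0.947) and DREB1B (LOC4347618, r = 0.92). None of these 9 genes passed between overexpression and RNAi (adjusted p = 0.552 to 0.977). All these r values come from the same 6 arrays and are a description only.

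**Figure D4:**
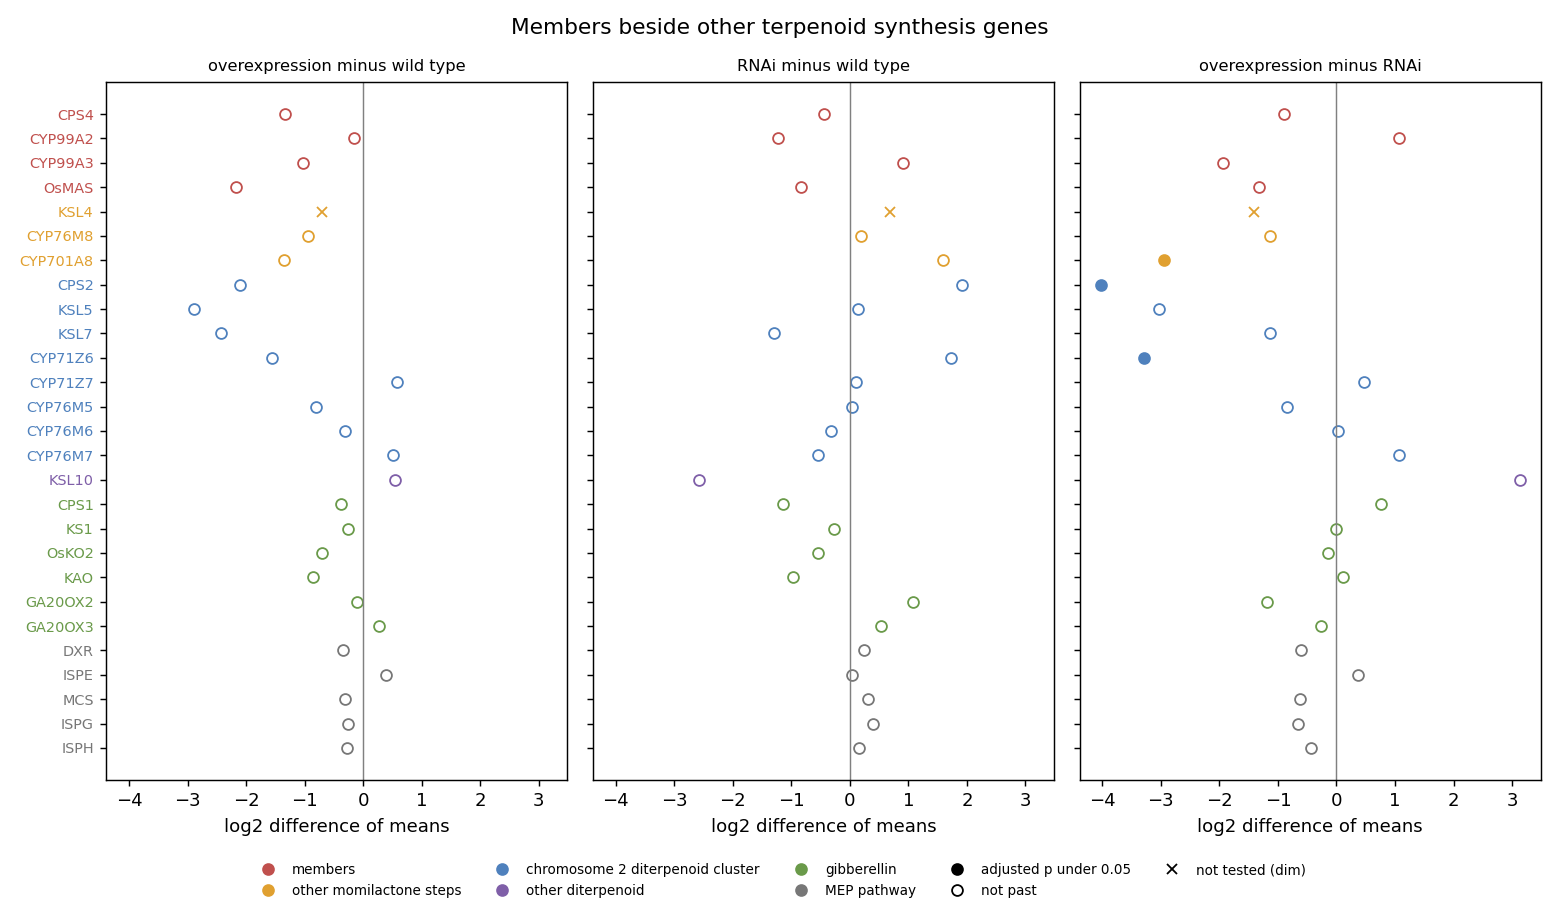
Log2 differences of group means for the 4 genes (red labels) beside other genes of diterpenoid, gibberellin and MEP pathway synthesis; filled points passed an adjusted p of 0.05 in limma and the cross marks KSL4, which was not tested. The filled points are CPS2, CYP71Z6 and CYP701A8 between overexpression and RNAi.

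Geranylgeranyl diphosphate, the substrate of CPS4, comes from the plastid MEP pathway. Of 5 MEP genes measured, 0 passed in any comparison. Of all tested probe sets 0.356% passed in overexpression against wild type, 0.773% in RNAi against wild type and 4.26% between overexpression and RNAi. A count of 0 in a list this short lies near those shares, here and in the lists below. At an unadjusted p under 0.05 there were 0 MEP genes against wild type (9.54% of all in overexpression, 10.9% in RNAi). Between overexpression and RNAi there were 4, where 18.5% of all tested probe sets had one. DXR had 13.34 and 13.46 in overexpression, 13.73 and 14.27 in RNAi, and 13.80 and 13.70 in wild type. ISPG had 14.20 and 14.21 in overexpression, 14.67 and 15.05 in RNAi, and 14.36 and 14.56 in wild type, with an adjusted p of 0.0844 between overexpression and RNAi. MCS, ISPH and ISPE had log2 changes of -0.63, -0.44 and 0.36 in that comparison (adjusted p = 0.13, 0.185 and 0.636).

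Gibberellins, growth hormones made from ent-copalyl diphosphate, share the early steps with the phytoalexins. Of 6 gibberellin genes, 0 passed in any comparison (at an unadjusted p under 0.05, 2 in overexpression against wild type, 2 in RNAi against wild type and 1 between overexpression and RNAi, beside 9.54%, 10.9% and 18.5% of all tested probe sets). KS1, the kaurene synthase, had 10.65 and 10.62 in overexpression, 10.50 and 10.77 in RNAi, and 10.96 and 10.84 in wild type, and OsKO2, the kaurene oxidase, had 8.53 and 8.54 in overexpression, 8.85 and 8.51 in RNAi, and 8.99 and 9.47 in wild type. Their log2 changes between overexpression and wild type were -0.27 and -0.70 (adjusted p = 0.659 and 0.459).

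Among 8 measured loci matched by name to regulators of diterpenoid phytoalexins 0 passed in any comparison. At an unadjusted p under 0.05 there were 0 in each comparison with wild type, beside 9.54% (overexpression) and 10.9% (RNAi) of all tested probe sets. Between overexpression and RNAi there were 2, beside 18.5% of all tested probe sets. RAI1 (LOC4331538), 1 of these 2, had 9.37 and 8.07 in overexpression, 7.22 and 4.75 in RNAi, and 6.75 and 8.20 in wild type. Its log2 change between overexpression and RNAi was 2.74 (adjusted p = 0.138), opposite in sign to CYP99A3. In that comparison 2 of the 8 loci were positive and 6 negative. The kinase genes MAPK6 (LOC4339633) and MPK3 (LOC4328297), the brightest of the 8, had log2 differences of -0.10 and -0.39 between overexpression and RNAi (adjusted p = 0.918 and 0.265). Each name also matched another locus in the gene table, MAPK6 at LOC4340170 (-0.17, adjusted p = 0.645) and MPK3 at LOC4332475 (0.35, adjusted p = 0.579), so which locus is the regulator was not settled. Of 9 tested genes of chitin perception and defence 0 passed either (at an unadjusted p under 0.05, 1 in overexpression against wild type, 1 in RNAi against wild type and 3 between overexpression and RNAi, beside 9.54%, 10.9% and 18.5% of all). PBZ1, a pathogenesis-related protein gene, had 9.21 and 11.62 in overexpression, 12.20 and 13.25 in RNAi, and 11.44 and 10.82 in wild type (adjusted p = 0.128 between overexpression and RNAi). PAL, for phenylalanine ammonia-lyase, had 14.06 and 13.84 in overexpression, 13.01 and 10.52 in RNAi, and 14.10 and 13.80 in wild type, which gives it the opposite sign to CYP99A3 between overexpression and RNAi (adjusted p = 0.124).

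Tissue markers were read beside these values, and 0 of their tested genes passed in any comparison. The summed linear level of 5 leaf markers was 154375 to 170316 in overexpression, 176007 to 192371 in RNAi and 177242 to 196535 in wild type. The overexpression arrays were lowest, and RNAi and wild type overlapped. CYP99A3 was lowest in overexpression and highest in RNAi, without overlap between groups. The sum of 11 root markers was 1781 to 2335 in overexpression, 1632 to 1881 in RNAi and 1635 to 2484 in wild type, with all groups overlapping. LSI1, a root silicon transporter, had log2 values of 8.95 to 10.01 in the seedlings, while LSI2 stayed under the filter level on all 6 arrays. The sum of 9 markers of dividing cells was 835 to 1139 in overexpression, 811 to 886 in RNAi and 681 to 811 in wild type. In that sum overexpression lay above wild type and overlapped with RNAi. By group mean, 6 of the 8 tested markers were higher and 2 lower in overexpression than in wild type. PCNA, the brightest, was lower (8.59 and 8.58 against 8.69 and 9.10). Among the higher ones, CYCB1-1 (LOC4327547), CYCB2-1, CYCB2-2 and MCM5 lay under the filter level on both wild-type arrays. The part of tissue makeup in the values of the 4 genes was not tested.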

How the data were processed

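Affymetrix rice arrays with 1 colour measured 6 seedling samples, 2 per group. The authors deposited log2 values per probe set, made with RMA per the submitters' processing notes (no version given). They were used as deposited, although exact zeros (331 to 618 an array) are unlike usual RMA output. There are no detection calls, and the few arrays limit precision. Of 57381 probe sets, 187 controls were left out and 40466 of 57194 were kept (log2 of at least 5 on 2 arrays). Annotation gave 1 gene to 22436 probe sets, several to 95 and none to 34663, and 17905 genes matched the gene table.

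Limma 3.58.1 in R 4.3.3 fitted 3 group means (3 residual degrees of freedom, 4.70 prior) with an intensity trend, two-sided. The fit was also run on simulated arrays with a set change larger than those of the 4 genes. Its power for changes of their size was not checked. The p-values rest on spread between labelled biological replicates, with the spread of each probe set moderated toward that of probe sets of like brightness. Genes, lists and the fit were chosen with earlier results of these data known. List genes were matched by name, 1 probe set each (highest mean over the arrays). Of a gene list with 5 or fewer measured genes all were named, otherwise up to 4 that passed, or the 2 brightest. RAI1, the other loci of MAPK6 and MPK3, and the named tissue markers were given outside that rule. From the lists, 3 matches whose synonyms name another protein were dropped. Likeness is Pearson r over 6 arrays. Same-numbered replicates deviated together at r = -0.03 to 0.04, so the numbers were not treated as pairs. Alternatives were other filters, normalisations, fits, and leaving out each array.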

Additional observations from a re-analysis of the deposited data

How the results depend on the processing

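The 12 changes of the 4 genes were recomputed under 13 alternatives, 150 values in all, since CPS4 and OsMAS dropped out with the filter at log2 6. Of these, 139 kept their sign and side of the threshold. The count of genes past the threshold between overexpression and RNAi was 0, and 1 (CYP99A3) with the filter at log2 6, after quantile normalisation and with arrays centred on the median; leaving out 1 array gave 0 to 1. It stayed 0 in the other comparisons under all 13. With replicate number as a replicate block, no call of the 4 genes changed (CYP99A3 between overexpression and RNAi, adjusted p = 0.0569), and all calls numbered 109, 393 and 1595 against 144, 313 and 1725.

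Sign changes came only from leaving out an array. CYP99A2 ranged over the left-out arrays from -0.85 to 2.998 between overexpression and RNAi, -3.15 to 0.69 between RNAi and wild type and -0.79 to 0.48 between overexpression and wild type. Between RNAi and wild type CPS4 ranged from -1.05 to 0.17 and OsMAS from -2.17 to 0.49. CYP99A2 changed to -0.85 between overexpression and RNAi and 0.69 between RNAi and wild type without RNAi replicate 1, and to 0.48 between overexpression and wild type without wild-type replicate 2. Between RNAi and wild type, CPS4 changed to 0.17 and 0.11 without RNAi replicate 1 and wild-type replicate 2, and OsMAS to 0.49 and 0.44 without RNAi replicate 2 and wild-type replicate 2. Leaving out 1 array moved the median of the 4 genes between -1.43 and 0.43 for RNAi against wild type, where other alternatives gave -0.64 to -0.16, between -1.80 and -0.56 for overexpression against wild type, and between -1.51 and -0.72 for overexpression against RNAi. The cause was not tested.

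The number of all probe sets past the threshold without the intensity trend was 0, 1 and 5, and without 1 array 0 to 223, 16 to 716 and 276 to 1830 (overexpression against wild type, RNAi against wild type, overexpression against RNAi). With only the 4 arrays compared it was 255, 141 and 1226. Low signal limits CPS4, OsMAS and KSL4, whose values lie largely under log2 5.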
